A study of Mus musculus with 7 samples.

Results

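Dendritic cells raised from mouse bone marrow depend on the receptors through which myeloid growth factors act, and the mRNA of 9 genes of this system was followed here: the receptors Csf1r, Csf2ra, Csf2rb, Csf2rb2, Csf3r, Il3ra, Flt3 and Kit, and the ligand gene Csf1. The genes were chosen by name as a receptor family with its ligand, not by a measured value, and all 9 were found among the 28666 genes of the deposited table. Poly(A) RNA of bone marrow-derived dendritic cells (BMDCs) was sequenced in 3 libraries labelled immature and 4 labelled mature. The marrow came from C57BL/6 mice, described in the study's methods as female and 6 to 8 weeks old, and was cultured for 7 days with the growth factors GM-CSF at 20 ng/mL and IL-4 at 10 ng/mL. The BMDCs then shared a Transwell chamber, which separates cells by a porous membrane, with MC38, a mouse colon adenocarcinoma line. The tumour cells or the co-culture received DON, a compound that blocks glutamine-using enzymes, at 5 µM for 24 h, and mature and immature cells were sorted by flow cytometry.

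Both groups shared the GM-CSF and IL-4 culture and the tumour co-culture, so no library shows these receptors without GM-CSF. The methods describe a sort after DON, a figure description also names the vehicle DMSO, and the labels give no treatment for any library. The gate that divided mature from immature cells was not given in the sources used here. A mature against immature difference is a difference between sorted cells, and whether treatment also differed between the groups cannot be told. The methods speak in general of independent biological repeats, but the labels do not say whether these 7 libraries came from separate mice or cultures. The p-values therefore measure only the spread between these samples, which may be technical.

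GM-CSF, interleukin-3 and interleukin-5 each bind a private alpha chain (Csf2ra, Il3ra or Il5ra) that pairs with a shared beta chain, Csf2rb, and mice carry a second beta chain gene, Csf2rb2, whose product serves the interleukin-3 receptor. These chains have no kinase of their own and signal through the kinase Jak2 and the transcription factor Stat5. Csf3r, the receptor for G-CSF, also signals through Janus kinases and is best known in neutrophils. Csf1r, Flt3 and Kit are class III receptor tyrosine kinases: Csf1r binds Csf1 and interleukin-34 and sustains macrophages, Flt3 binds Flt3 ligand and drives dendritic cell development, and Kit binds stem cell factor on progenitors and mast cells.

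The libraries held 54846746 to 67973086 counts over all genes, and 17461 genes passed the filter on low counts and were tested. Any 2 immature libraries differed with a median chi-square per gene of 3.83 to 4.54, and mature replicates 1, 2 and 4 with 4.26 to 5.27. Pairs that held mature replicate 3 reached 17.7 to 25.6, so this library stood apart from its group. Heart muscle transcripts set mature replicates 2, 3 and 4 apart from mature replicate 1 and from the immature libraries. The 8 heart muscle genes on a list summed to 266, 281 and 262 FPKM (fragments scaled to gene length and library depth) in mature replicates 2, 3 and 4. They summed to 12.3 FPKM in mature replicate 1, of which Tnni3 gave 11.18, and to 1.82 to 1.97 in immature cells. All 8 were called higher in mature cells by the criteria given below, or 100% beside 23.1% of all genes. The source of these transcripts was not tested. Markers that dendritic cells share were present in both groups: Itgax, which encodes CD11c, was at 253 ± 11.5 FPKM (SD, n = 3) in immature and 206 ± 30.8 (SD, n = 4) in mature cells. Of 14 dendritic cell markers, 6 rose and 3 fell in mature cells. By the criteria given below, 64.3% of the list passed, beside 23.1% of all genes. The risers included the maturation genes Ccr7, from 89.8 to 1183 FPKM, and Cd83, from 31.9 to 281. Those that fell were Sirpa, Clec9a and Cd209a. Sirpa was abundant and went from 136 to 56.3 FPKM, with a log2 fold change of -1.38 (adjusted p = 1.15e-06 in edgeR). The subset markers Clec9a and Cd209a were at or under 1.19 FPKM in every library, and Cd209a lost its call without immature replicate 1 or 3.

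The receptor genes did not move as a group. By edgeR's quasi-likelihood test with a log2 fold change of at least 1 and a Benjamini-Hochberg adjusted p under 0.05, Flt3 and Kit rose in mature cells, Csf1r, Csf2ra and Csf3r fell, and Csf1, Csf2rb, Csf2rb2 and Il3ra did not pass. These are 5 of 9 genes, where 23.1% of all genes tested passed. The 2 that rose stand against 13.2% of all genes in that direction and the 3 that fell against 9.95%. By adjusted p alone 8 of 9 passed, against 46.1% of all genes, and in CPM, the counts scaled to library size, the groups did not overlap for 7 of 9, against 52.1%. The median log2 fold change of the 9 genes was 0.31, beside 0.05 over all genes tested, and their median absolute log2 fold change was 1.50, beside 0.57. In bulk samples such as these, fewer cells that make a transcript and less of it per cell cannot be told apart.

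**Figure D1:**
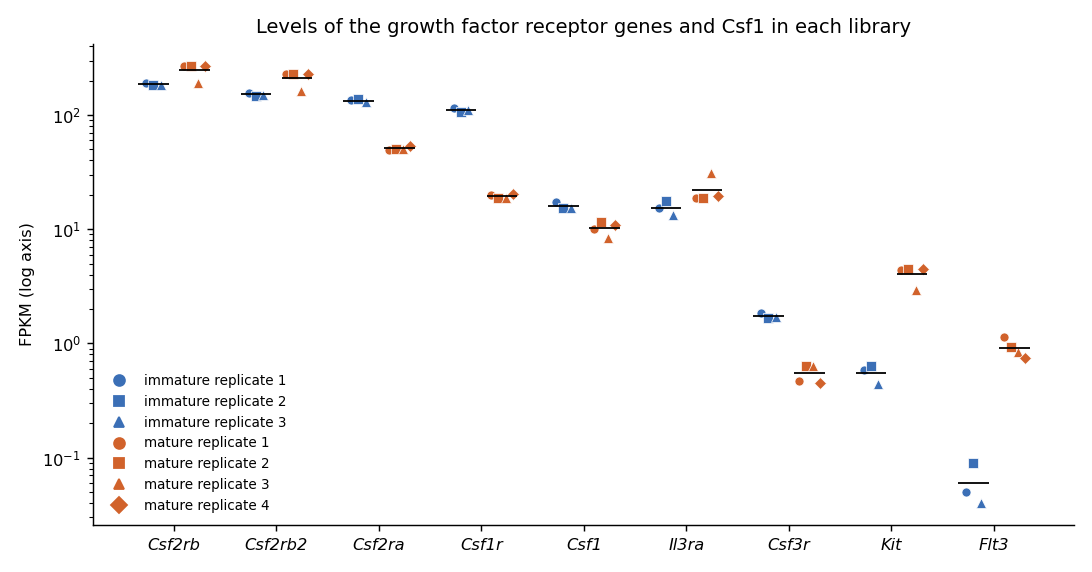
Levels of the 9 genes in each library, in FPKM on a log axis, with immature and mature libraries as separate points and a bar at each group's mean. Csf1r and Csf2ra lie lower in all 4 mature libraries than in all 3 immature ones, and Flt3 and Kit lie higher.

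The GM-CSF receptor was split: the alpha chain fell while the shared beta chain did not. Csf2ra (ENSMUSG00000059326, GRCm38 chr19:61223957-61228429, minus strand) encodes the chain that binds GM-CSF. Its level was 134.87, 137.32 and 129.02 FPKM in immature replicates 1 to 3 and 49.61, 50.89, 50.28 and 53.15 in mature replicates 1 to 4. All immature libraries lay far above all mature ones, and both groups were tight. The level fell 2.82-fold, with a log2 fold change of -1.50 ± 0.073 (SE) and an adjusted p = 1.03e-06 in edgeR. No mature library had lost the transcript, which remained at 51 ± 1.54 FPKM (SD, n = 4).

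Csf2rb (ENSMUSG00000071713, chr15:78325752-78351001, plus strand), the beta chain shared by the GM-CSF, interleukin-3 and interleukin-5 receptors, had the highest mean of the 9 genes in both groups. It stood at 189.66, 182.64 and 184.92 FPKM in the immature libraries and at 269.61, 267.31, 189.81 and 268.12 in the mature ones. Mature replicates 1, 2 and 4 were above every immature library and mature replicate 3 was level with immature replicate 1. In CPM, mature replicate 3 lay at 1563, inside the immature range of 1485 to 1573. The log2 fold change of 0.31 ± 0.11 (SE) was small, with an adjusted p = 0.0459 in edgeR. That p ran from 8.14e-05 without mature replicate 3, where the log2 fold change was 0.42, to 0.151 without immature replicate 2, where it was 0.28. Leaving out any other single library put the adjusted p at 0.0888 to 0.123, so of these 7 fits only the one without mature replicate 3 had an adjusted p under 0.05.

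Csf2rb2 (ENSMUSG00000071714, chr15:78282507-78305721, minus strand) lies beside Csf2rb on chromosome 15 and encodes the second beta chain. Its FPKM values were 155.98, 147.06 and 150.82 in immature cells and 229.0, 227.31, 163.71 and 230.01 in mature cells. Here every mature library lay above every immature one, with mature replicate 3 again the lowest of its group. The log2 fold change was 0.38 ± 0.11 (SE) with an adjusted p = 0.0187 in edgeR, below the fold criterion. With 1 library left out the adjusted p ran from 3.05e-05, without mature replicate 3, to 0.083, without immature replicate 2; without immature replicate 1 or 3 it was 0.0611 and 0.0569.

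How far the Csf2rb and Csf2rb2 reads can be separated is a matter of their sequence. The coding sequences of their longest coding transcripts, of 2688 and 2634 bases, were 95.2% identical over 2628 aligned bases. Of all 150-base windows, the read length, 3.47% of the Csf2rb transcript were found letter for letter in Csf2rb2, and of 75-base windows 10.7%. The ratio of Csf2rb2 to Csf2rb was nearly constant, between 0.805 and 0.822 in immature and between 0.849 and 0.862 in mature libraries. The split of reads between the 2 genes is uncertain by an amount that was not measured. How reads with several matches were counted is not given in the sources used here.

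Il3ra (ENSMUSG00000068758, chr14:14346275-14355493, plus strand), the alpha chain that binds interleukin-3, overlapped between the groups, and mature replicate 3 stood apart. Its levels were 15.22, 17.52 and 13.19 FPKM in immature cells and 18.82, 18.95, 30.81 and 19.54 in mature cells. In CPM, which the test used, the values of 45.8 to 58.1 in immature cells overlapped those of 57.1 to 104 in mature cells, where mature replicate 3 held the highest. The log2 fold change of 0.44 ± 0.22 (SE) did not pass, with an adjusted p = 0.137 in edgeR. It was 0.21 without mature replicate 3, with an adjusted p = 0.0652.

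**Figure D2:**
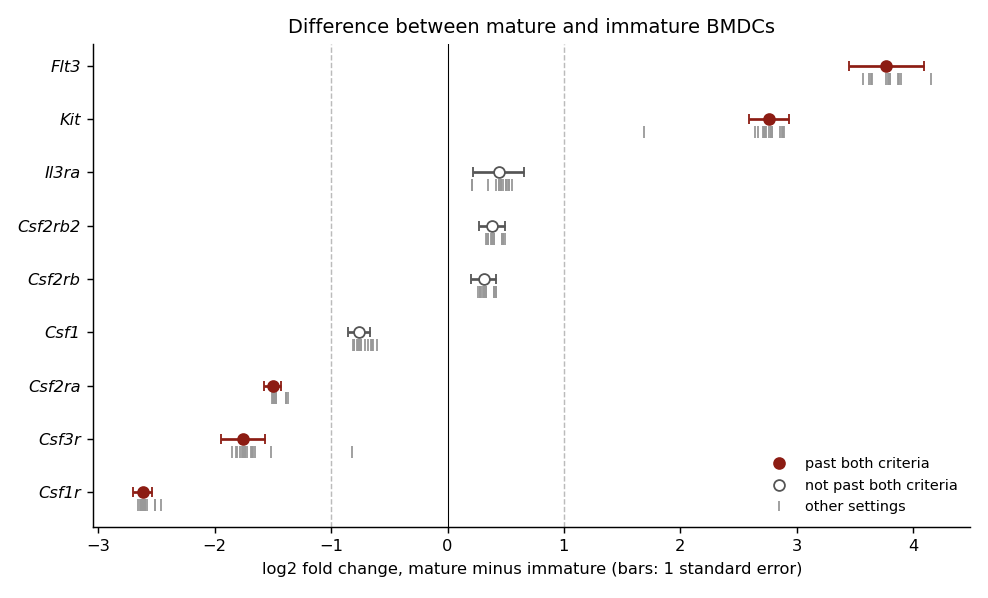
Log2 fold change of each of the 9 genes, mature over immature, from edgeR with bars of 1 standard error. Ticks under each point are the values under other settings, and the dashed lines mark a log2 fold change of 1 in either direction. Flt3 at 3.77 and Kit at 2.76 lie beyond the upper line, Csf1r at -2.62, Csf3r at -1.76 and Csf2ra at -1.50 beyond the lower line, and the other 4 between the lines.

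Csf1r carried the steepest fall of the set, and its ligand Csf1 was lower as well but by less. Csf1r (ENSMUSG00000024621, chr18:61100598-61131134, plus strand), the receptor on which macrophages and monocytes depend, was at 115.18, 107.15 and 111.67 FPKM in immature cells. In mature cells it was at 19.85, 18.79, 18.91 and 20.29 FPKM. The 2 groups were separated by a wide gap and the mature libraries differed among themselves by little. The level fell 6.16-fold, with a log2 fold change of -2.62 ± 0.080 (SE) and an adjusted p = 1.83e-07 in edgeR. Its fold change was between -2.66 and -2.58 with any 1 library left out.

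Csf1 (ENSMUSG00000014599, chr3:107741048-107760469, minus strand), which encodes the ligand M-CSF, was at 17.43, 15.32 and 15.47 FPKM in immature cells and at 10.06, 11.62, 8.36 and 10.86 in mature cells. The groups did not overlap. Its log2 fold change of -0.76 ± 0.098 (SE), with an adjusted p = 0.000272 in edgeR, lay under the fold criterion. The level of ligand per receptor transcript was therefore higher in mature cells. The ratio of Csf1 to Csf1r in FPKM was 0.151, 0.143 and 0.139 in the immature libraries and 0.507, 0.618, 0.442 and 0.535 in the mature ones, a 3.62-fold difference.

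Macrophage and monocyte markers moved with Csf1r. Of 17 listed, 14 fell and 3 did not pass, or 82.4% past the criteria beside 23.1% of all genes. The median log2 fold change was -1.74 against 0.05 over all genes, and their summed level was 9129 to 9276 FPKM in immature and 1178 to 1469 FPKM in mature libraries. Most of that sum was Lyz2, the lysozyme of myeloid cells, at 7965 and 1032 FPKM. The mannose receptor gene Mrc1 went from 21.7 to 2.19 FPKM and the chemokine receptor Ccr2 from 95.6 to 9.78. Adgre1, which encodes F4/80, was 31 FPKM in immature and 15.9 in mature cells. The part of these cells in the level of Csf1r was not tested.

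Csf3r (ENSMUSG00000028859, chr4:126024550-126044440, plus strand), the G-CSF receptor, was scarce in both groups and fell further. It was at 1.86, 1.66 and 1.69 FPKM in immature cells and at 0.47, 0.64, 0.63 and 0.45 in mature cells, from 374 to 460 and 108 to 157 counts. No mature library came near the lowest immature one. The level fell 3.39-fold, with a log2 fold change of -1.76 ± 0.19 (SE) and an adjusted p = 0.000109 in edgeR.

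Neutrophil markers gave the following values beside Csf3r. Of 7 tested, Mmp8 and S100a8 fell and 5 did not pass, or 28.6% past the criteria beside 23.1% of all genes. The median log2 fold change was -0.44, and the summed level over the list was 162 to 168 FPKM in immature and 32.9 to 54 FPKM in mature libraries. Mmp8, a collagenase of neutrophil granules, was at 131 FPKM in immature cells, most of their sum, and at 18.8 in mature cells. Lcn2 was at 28.8 and 16.2 FPKM, with a log2 fold change of -0.93 (adjusted p = 0.00489 in edgeR), and met the criteria without mature replicate 4. S100a8 was at 2.26 and 0.94 FPKM, and its call was lost without any 1 of immature replicates 2 and 3 and mature replicates 1, 2 and 4. The chemokine receptor Cxcr2 went the other way, at 3.26 and 6.62 FPKM, with a log2 fold change of 0.91 (adjusted p = 0.00184 in edgeR), and met the criteria without mature replicate 3, where 3 of the list passed. The granule genes Mpo, Camp and Ltf were under 0.1 FPKM in every library. The part of neutrophils in the level of Csf3r was not tested.

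Flt3 and Kit moved the other way, from low levels. Flt3 (ENSMUSG00000042817, chr5:147330741-147400489, minus strand), the receptor for Flt3 ligand, was at 0.05, 0.09 and 0.04 FPKM in immature cells, from 21, 36 and 20 counts. In mature cells it was at 1.14, 0.93, 0.84 and 0.75 FPKM, from 484, 385, 311 and 302 counts. The highest immature library was many times below the lowest mature one. The level rose 13.6-fold, with a log2 fold change of 3.77 ± 0.32 (SE) and an adjusted p = 2.03e-05 in edgeR, and stayed between 3.57 and 4.15 with any 1 library left out. Even in mature cells the mean was 0.915 ± 0.167 FPKM (SD, n = 4).

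Kit (ENSMUSG00000005672, chr5:75574916-75656722, plus strand), the receptor for stem cell factor, was at 0.58, 0.63 and 0.44 FPKM in immature cells. In mature cells it was at 4.41, 4.44, 2.94 and 4.44. All mature libraries were above all immature ones, and mature replicate 3 was the lowest of the mature group. The level rose 6.78-fold, with a log2 fold change of 2.76 ± 0.17 (SE) and an adjusted p = 3.46e-06 in edgeR.

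Markers of mast cells and progenitors, the cells known for Kit, gave the following values. Of 5 mast cell and basophil markers tested, Hdc rose, from 0.13 to 0.483 FPKM, and 4 did not pass. That share of 20% was near the 23.1% of all genes. The Hdc call was lost without immature replicate 2. The summed level of that list was 0.98 to 1.02 FPKM in immature and 1.52 to 2.7 FPKM in mature libraries, there below the level of Kit alone, and Mcpt4, Tpsb2, Cma1 and Fcer1a were under 0.1 FPKM in every library. Of 6 progenitor markers tested, 4 rose and 2 did not pass, with a median log2 fold change of 1.99. The share past the criteria was 66.7%, beside 23.1% of all genes. Those that rose were Sox4, from 1.05 to 5.42 FPKM, Meis1, from 0.217 to 1.07, Cd34, from 0.257 to 0.952, and Hlf, which was at most 0.21 in any library and whose call was lost without immature replicate 1 or 3 or mature replicate 2. The summed progenitor level overlapped, at 12.6 to 14.6 FPKM in immature and 13.3 to 19.8 FPKM in mature cells. Most of the immature sum was Ly6a, at 11.7 and 8.05 FPKM, with a log2 fold change of -0.65 (adjusted p = 0.0475 in edgeR). Without Ly6a the sums did not overlap, at 1.55 to 1.73 FPKM in immature and 5.84 to 8.86 FPKM in mature cells. The part of progenitors or mast cells in the level of Kit and Flt3 was not tested.

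Plasmacytoid dendritic cells, which are known for high Flt3, were checked by 5 markers. None met the criteria in edgeR or in DESeq2. Bst2 and Tcf4, the 2 with an unadjusted p under 0.05, also had an adjusted p under 0.05, at 0.0114 and 0.00588 in edgeR, and missed the fold criterion at log2 fold changes of 0.92 and 0.70. Bst2 met it without mature replicate 2 or 4. The general interferon-induced marker Bst2 was at 64.5 ± 5.67 FPKM (SD, n = 3) in immature and 130 ± 38.9 (SD, n = 4) in mature cells, with mature replicate 3 the highest at 188.12. Tcf4, the transcription factor of these cells, was at 0.747 and 1.32 FPKM. Of 2 B cell markers tested neither met the criteria in edgeR and neither had an unadjusted p under 0.05, while DESeq2 called 1. Among T and NK cell markers Cd8a rose and 6 of 7 did not pass, and among epithelial markers, which the MC38 line could bring, Epcam rose, to 0.552 FPKM, and 4 of 5 did not pass. These shares past the criteria, 14.3% and 20%, were below the 23.1% of all genes. With immature replicate 3 or mature replicate 1 left out, 2 epithelial markers passed.

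Upstream sequence is shown for the 4 genes that passed the criteria and have a RefSeq promoter entry that may be printed, so that the stretches before genes that fell and genes that rose can be read side by side. RefSeq sequence was found for 7 of the 9 genes; Csf1r and Csf2rb had none in the table used. Each stretch is on GRCm38.p6, written 5′ to 3′ in the direction of the gene, and starts 250 bases before the RefSeq gene start. It ends at that start, or, for Kit and Csf3r, at the edge of the gene in the deposited table. The last 11 bases of the Csf2ra stretch lie inside the gene as the deposited table places it. Capitals mark letters that match a motif.
Csf2ra, chr19:61228419-61228668, minus strand: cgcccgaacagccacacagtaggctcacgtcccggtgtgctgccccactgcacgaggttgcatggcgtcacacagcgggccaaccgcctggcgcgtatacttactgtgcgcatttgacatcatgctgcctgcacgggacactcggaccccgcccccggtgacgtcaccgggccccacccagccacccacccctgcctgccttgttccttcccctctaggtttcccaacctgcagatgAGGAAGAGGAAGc
Csf3r, chr4:126024409-126024549, plus strand: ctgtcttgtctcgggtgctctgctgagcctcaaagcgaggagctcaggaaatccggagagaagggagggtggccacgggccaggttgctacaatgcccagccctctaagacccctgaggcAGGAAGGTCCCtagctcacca
Flt3, chr5:147400490-147400739, minus strand: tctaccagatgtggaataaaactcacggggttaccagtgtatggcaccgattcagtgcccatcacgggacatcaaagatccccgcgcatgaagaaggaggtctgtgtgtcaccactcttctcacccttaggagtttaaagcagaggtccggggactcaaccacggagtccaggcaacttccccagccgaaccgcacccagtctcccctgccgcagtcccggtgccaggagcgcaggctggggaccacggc
Kit, chr5:75574737-75574915, plus strand: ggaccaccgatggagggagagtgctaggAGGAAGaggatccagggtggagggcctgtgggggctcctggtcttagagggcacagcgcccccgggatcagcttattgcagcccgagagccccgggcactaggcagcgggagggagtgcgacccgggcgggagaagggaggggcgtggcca

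The motifs searched on both strands, in 250 bases before to 50 bases after each start, were the Ets core AGGAAG, AP-1 TGANTCA, STAT5 TTCNNNGAA, NF-kB (GGGA and CC with any 4 bases between them), C/EBP TTGNNCAA and RUNX TGTGGT. Csf2ra held 2 Ets cores, at -13 to -8 and -7 to -2 from the RefSeq start. By the gene edge in the deposited table, the second lies wholly and the first partly inside the gene. Csf3r held 4 Ets cores, at -130, -94, -85 and -20, and 1 NF-kB match on the opposite strand at -129 to -120 that overlaps the first of them; only the first core and this match lie in the printed stretch. Kit held 1 Ets core at -222 to -217. None of the 6 motifs was found in the Flt3 window. An Ets core was present in 35.4% of 32851 promoter windows of the same length, and the other motifs in 7.81% (AP-1), 8.3% (STAT5), 20.7% (NF-kB), 6.4% (C/EBP) and 16.8% (RUNX). These are matches of letters and not sites of binding.

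Per length, the order of the levels differed between the groups. In immature cells it ran, in FPKM, from Csf2rb at 186 ± 3.58 through Csf2rb2 at 151 ± 4.48, Csf2ra at 134 ± 4.26 and Csf1r at 111 ± 4.03 to Csf1 at 16.1 ± 1.18 and Il3ra at 15.3 ± 2.17 (SD, n = 3). Below them were Csf3r at 1.74 ± 0.108, Kit at 0.55 ± 0.0985 and Flt3 at 0.06 ± 0.0265 FPKM. Among these, Csf1 and Il3ra overlapped and no other neighbours did.

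In mature cells both beta chains still led, with Csf2rb at 249 ± 39.3 FPKM and Csf2rb2 at 213 ± 32.6 (SD, n = 4), which overlapped. Csf2ra followed at 51 ± 1.54 FPKM, then Il3ra at 22 ± 5.86 and Csf1r at 19.5 ± 0.729, which overlapped, and Csf1 at 10.2 ± 1.4. Kit at 4.06 ± 0.745 FPKM and Flt3 at 0.915 ± 0.167 came above Csf3r at 0.547 ± 0.101. Flt3 and Csf3r changed places between the groups, and Csf1r passed from near the level of Csf2ra to that of Il3ra.

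Ratios within a library compare pairs of these genes without the scaling between libraries. Over 7 pairs, an exact two-sided permutation test of 3 against 4 libraries can reach no p below 0.0571, so no pair could pass 0.05. The ratio of Csf2rb to Csf2ra in FPKM was 1.41, 1.33 and 1.43 in immature and 5.43, 5.25, 3.78 and 5.04 in mature libraries. Beta chain transcripts were thus slightly above alpha chain transcripts in immature cells and several-fold above them in mature cells, with no overlap, a 3.48-fold difference (exact permutation p = 0.0571, adjusted p = 0.0667). The 2 alpha chains also shifted against each other: Il3ra was 0.113, 0.128 and 0.102 of Csf2ra in immature and 0.379, 0.372, 0.613 and 0.368 in mature libraries.

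The ratio of Csf3r to Csf2ra overlapped, with log2 values from -6.37 to -6.18 in immature and from -6.88 to -6.31 in mature cells (exact permutation p = 0.171, adjusted p = 0.171). The ratio of Flt3 to Csf1r showed the widest difference, with log2 values from -11.45 to -10.22 in immature and from -4.76 to -4.12 in mature cells. Kit stayed above Flt3 in all libraries, 7 to 11.6 times in immature and 3.5 to 5.92 times in mature cells. For Flt3 in immature cells these ratios rest on FPKM values given to 2 decimals. Apart from Csf3r to Csf2ra, all of the 7 pairs had groups that did not overlap, each with an exact permutation p = 0.0571 and an adjusted p = 0.0667.

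**Figure D3:**
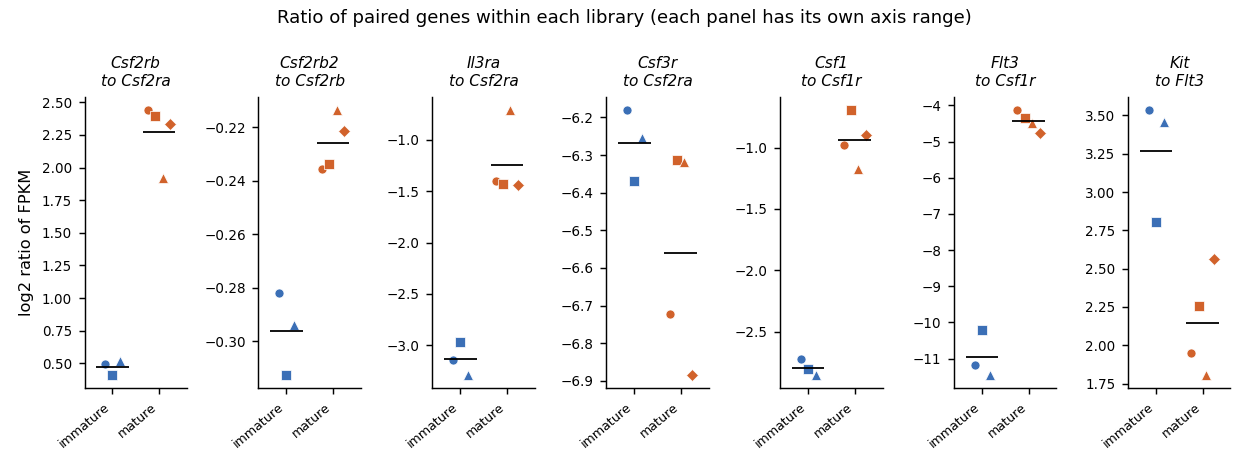
Log2 ratio of FPKM for 7 pairs of genes within each library, with immature and mature libraries as separate points and a bar at each group's mean. Csf2rb over Csf2ra moves from a mean of 0.47 to 2.27 and Csf1 over Csf1r from -2.79 to -0.94, while Csf3r over Csf2ra overlaps.

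Apart from Csf1, the listed ligands of these receptors were at low levels in the cells themselves. Of 12 listed ligands and related receptors, 7 could be tested, 1 rose and 1 fell, or 28.6% past the criteria beside 23.1% of all genes. Kitl, which encodes stem cell factor, was at 1.05, 1.09 and 0.91 FPKM in immature and 0.35, 0.47, 0.32 and 0.33 in mature cells, opposite in direction to its receptor. It fell with a log2 fold change of -1.57 ± 0.18 (SE) and an adjusted p = 0.000115 in edgeR. Flt3l, the ligand of Flt3, was at 3.05 ± 0.376 FPKM (SD, n = 3) in immature and 3.72 ± 0.258 (SD, n = 4) in mature cells and did not pass (adjusted p = 0.271 in edgeR). Csf3, which encodes G-CSF, varied from 0.27 to 3.11 FPKM with overlapping groups. Il34, which encodes the other ligand of Csf1r, was at most 0.27 FPKM in any library and did not pass (adjusted p = 0.78 in edgeR). Csf2, which encodes GM-CSF, had between 0 and 21 counts per library and was not tested. Il5ra, the third alpha chain that uses Csf2rb, rose from 4, 0 and 0 counts to 30, 25, 20 and 11 (adjusted p = 0.0195 in edgeR), near the floor of 3 counts in immature cells, and its call was lost without immature replicate 2 or 3. Without mature replicate 1, Pdgfra passed too and made 3 of the list. Il3 was not analysed here.

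Of 20 listed genes that act behind the shared beta chain, 4 rose and 16 did not pass, with a median log2 fold change of 0.28. The share past the criteria, 20%, was near the 23.1% of all genes tested, so the count says nothing particular to this list. Jak2, the kinase bound to the beta chain, was at 102.22, 90.7 and 96.26 FPKM in immature and 327.64, 329.71, 216.62 and 312.57 in mature cells (log2 fold change 1.51 ± 0.13 SE, adjusted p = 2.49e-05 in edgeR). Stat5a, the transcription factor it activates, went from 13.2 to 29.2 FPKM, a call lost without mature replicate 4. Socs2, a feedback inhibitor that Stat5 induces, went from 12.9 to 39.3 FPKM, and Pik3r1, a regulatory subunit of PI3 kinase, from 9.67 to 40.3. Cish, a second feedback inhibitor of the same family, was at 24.5 and 49.4 FPKM, with a log2 fold change of 0.91 under the criterion.

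Among 20 genes that act behind receptor tyrosine kinases, 2 rose, 7 fell and 11 did not pass, with a median log2 fold change of -0.39. The share past the criteria was 45%, beside 23.1% of all genes. The Src family kinase Fgr fell from 14.8 to 2.37 FPKM, and Lyn, a kinase of the same family, from 37.6 to 16.1. The adaptor Dok2, a brake on such receptors, fell from 53.9 to 14.2 FPKM, the phospholipase Plcg2 from 42.4 to 17, and Socs6, which binds Kit and Flt3, from 15.9 to 4.52. Gab1 and Tyrobp fell too, Gab1 not without mature replicate 1 or 3. Cblb, a ubiquitin ligase that marks receptors for breakdown, rose from 3.25 to 17.1 FPKM, and Pik3r5 from 26.1 to 94.4. Dok1, related to Dok2, went the other way from it, at 24 and 47.9 FPKM. Its log2 fold change of 0.90 (adjusted p = 0.000578 in edgeR) was under the criterion. Of 8 genes for cleavage of receptors at the cell surface, the proteases Adam9 and Adam10 fell, from 38 to 14.5 and from 52.1 to 18 FPKM. The inhibitor Timp3 rose, to 3.66 FPKM, and 5 did not pass, among them Adam17, the protease known to release Csf1r, at 17.9 and 12.4 FPKM. Of these 8 genes 37.5% passed, beside 23.1% of all genes.

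Transcription factors of the myeloid lineages moved in both directions, 6 up and 8 down of 20, with a median log2 fold change of -0.05. The share past the criteria was 70%, beside 23.1% of all genes. Those that rose included Irf8 from 13.5 to 62.7 FPKM, Zbtb46 from 2.64 to 11.8, Batf3 from 31.8 to 86.8 and Id2 from 85.6 to 197, beside Bcl6 from 2.28 to 5.14. Those that fell included Klf4 from 64.2 to 12.4 FPKM, Cebpb from 151 to 37.5 and Cebpa from 32.3 to 15.8, together with the Ets factor Fli1 from 9.68 to 3. Irf4, also known from dendritic cells, was at 37.1 and 79.5 FPKM, with a log2 fold change of 0.99 under the criterion. The Bcl6 call was lost without immature replicate 2 and the Id2 call without mature replicate 3. Spi1 (PU.1), an Ets factor known to act on Csf1r, was at 86.2 ± 0.523 FPKM (SD, n = 3) and 51.9 ± 6.75 (SD, n = 4), with a log2 fold change of -0.83 under the criterion. Myb, a progenitor factor known to act on Kit, rose from 0.0333 to 0.872 FPKM.

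**Figure D4:**
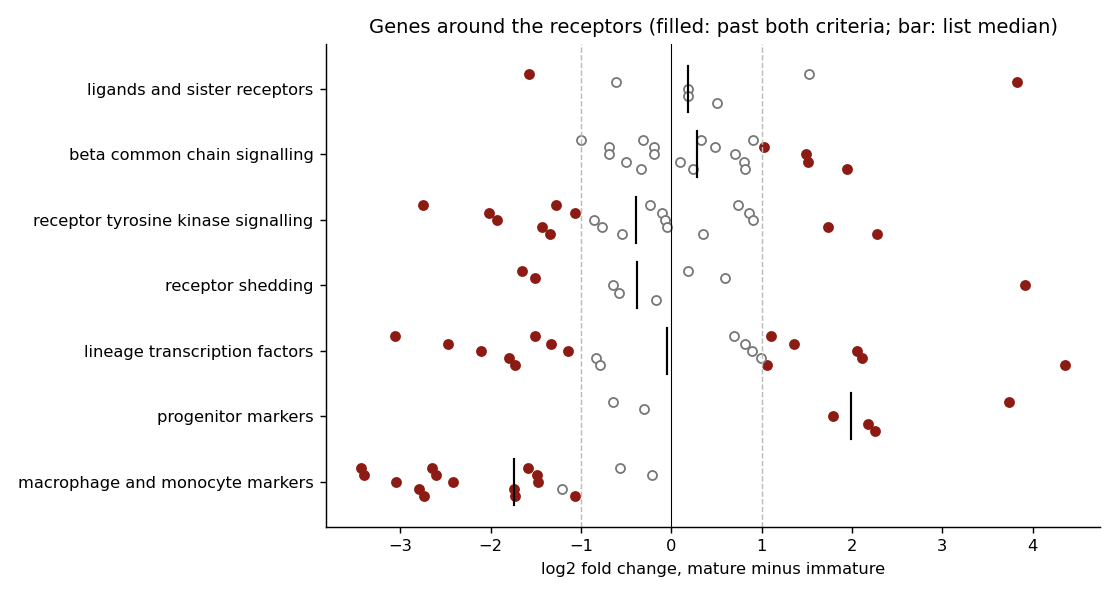
Log2 fold change, mature over immature, of the tested genes on the lists of ligands, signalling, receptor shedding, transcription factors and cell type markers, with progenitor and macrophage and monocyte markers as the cell types shown; each point is 1 gene, filled where it passed the criteria, and a bar marks the median of the list. The macrophage and monocyte list lies mostly below 0, with a median of -1.74, and the list behind the shared beta chain has 4 genes past the upper criterion.

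The genes whose pattern over the 7 libraries lay closest to each of the 9 were found by the root mean square distance of centred log2 CPM over 7270 genes. Nearest to Csf1r were Lair1 at 0.050, Vsir at 0.052 and P2ry6 at 0.065, and nearest to Csf2ra were Eno1b at 0.033, Rmnd5b at 0.034 and Aldh2 at 0.041. Csf1 had Nomo1 at 0.025, Lrrc8d at 0.039 and Lrpprc at 0.040. For the beta chains the nearest were Mbtps1 at 0.033, Ssh3 and Ehmt1 for Csf2rb, and Syk and Ambra1 at 0.037 and Taf4 at 0.038 for Csf2rb2. Il3ra was matched by Mrps24 at 0.057, Inafm1 and Aarsd1. The distances were wider for the scarce genes: Adssl1 at 0.124, Wdr41 and Ripk3 for Csf3r, Hsf2 at 0.107, Pde4b and Rabgap1l for Kit, and Ifnlr1 at 0.180, Htr7 and Il2ra for Flt3. These distances mostly measure how alike the steps between the groups are, since all points share the same 7 libraries.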

How the data were processed

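RNA of 3 immature and 4 mature BMDC libraries was sequenced as 150-base reads. The authors deposited 1 table with raw counts and with FPKM values for each gene and library. Per the submitters' processing notes the tools were cutadapt 1.9, HISAT2 2.2.1, StringTie 2.1.6, DESeq2 and edgeR, and which tool made the counts is not given in the sources used here. The notes name mm9, but 24940 of 28588 shared genes, and 6 of the 9 genes reported, have the coordinates of GRCm38 in GENCODE M21, so coordinates are given as GRCm38. All value columns were matched to a labelled sample. Whether the counting used strand is not given, so reads of antisense genes may be included.

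Counts were tested in edgeR 4.0.16 (R 4.3.3; TMM factors, filterByExpr, quasi-likelihood F test, 7 libraries, no covariate), adjusted by Benjamini-Hochberg over 17461 genes, and a gene met the criteria where its log2 fold change was 1 or more in either direction with an adjusted p below 0.05. Ratios used deposited FPKM and exact permutation over 35 labelings (scipy 1.17.1). Alternatives were DESeq2 1.42.0, other size factors, no filter, limma 3.58.1 on log2(FPKM + 1) or log2(FPKM + 0.1) with at least 1 FPKM in 3 libraries, a replicate block, leaving out libraries, and adjusted p alone. Scripts were tested on simulated data. Depth sets precision: the scarcest gene, Flt3, had 20 to 36 counts in immature libraries. Besides all 9 genes, their ligands and the 3 genes nearest to each in pattern, the text names up to 5 genes a list and direction. These were taken by adjusted p, past the criteria with a mean of at least 5 FPKM in 1 group. Others were picked with their values in view. They include Cish and Pik3cd behind the beta chain, Dok1, Spi1, Irf4, Myb, Timp3, Gab1, Tyrobp, Adam17 and the markers. The genes and lists were chosen with earlier results of these data known. A gene that the rule names is not reported here.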

Additional observations from a re-analysis of the deposited data

Results flagged for a closer look

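Among the mature libraries, replicate 3 lay far from the other 3 in 4 of the 16 values compared, and chance gives such a gap in about 1 in 20 groups, or 0.8 of 16. That figure cannot weigh the 4, since the values are not independent. The ratios are built from the same genes, and Il3ra enters both a flagged CPM and a flagged ratio. Its gap to the nearest library, as a share of the range of the group, was 0.854 for the CPM of Csf2rb, where it held the lowest value at 1563 against 1975 to 2045. For the CPM of Il3ra the share was 0.921, with the highest value at 104 against 57.1 to 60.8. For the CPM of Kit it was 0.888, with the lowest value at 29.7 against 40.3 to 41.6. For the log2 ratio of Il3ra to Csf2ra it was 0.939, with the highest value at -0.71 against -1.44 to -1.40.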

How the results depend on the processing

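Of the 9 genes, Csf1r, Csf2ra, Flt3 and Kit kept their direction and their side of the criteria under every alternative that tested them; limma on FPKM did not test Flt3, which lay under its minimum. Csf3r was weaker with limma on log2(FPKM + 1), at -0.82 (adjusted p = 8.75e-05), a scale that by construction shrinks low values. That setting called 1768 genes and 3 of the 9, and log2(FPKM + 0.1) called 2561, against 4037 and 5. Adjusted p alone called 8053 genes and 8 of the 9, adding Csf1 (-0.76), Csf2rb (0.31) and Csf2rb2 (0.38). With 0.1 added to FPKM, more than the Flt3 level in any immature library, the difference in the log2 ratio of Kit to Flt3 went from -1.12 to 0.00. Upper-quartile factors moved the median of all genes from 0.05 to 0.165 and called 2590 genes higher and 1504 lower, beside 2300 and 1737.

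Leaving out 1 library called 3646 to 4052 genes and 5 of the 9 each time. The log2 fold changes ran from -0.81 to -0.68 for Csf1, -2.66 to -2.58 for Csf1r, -1.50 to -1.47 for Csf2ra, 0.28 to 0.42 for Csf2rb, 0.34 to 0.48 for Csf2rb2, -1.85 to -1.67 for Csf3r, 0.21 to 0.53 for Il3ra, 3.57 to 4.15 for Flt3 and 2.64 to 2.89 for Kit. The differences of log2 ratios ran from 1.77 to 1.94 for Csf1 to Csf1r, 1.74 to 1.92 for Csf2rb to Csf2ra and -0.37 to -0.18 for Csf3r to Csf2ra. Leaving out mature replicates 1 and 3 together, chosen after seeing the data, called 4215 genes and 5 of the 9.

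The replicate numbers gave no sign of a pairing of samples: deviations of same-numbered libraries correlated at 0.03, -0.00 and 0.01. These correlations cannot show whether such libraries shared a mouse or culture. A replicate block in edgeR left 3616 genes and 5 of the 9 past the criteria, with an adjusted p of 0.163 for Csf2rb and 0.0893 for Csf2rb2.

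Depth limits Flt3 in immature cells, at 20 to 36 counts, and the smallest exact p of a ratio is 0.0571.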
